A study of Mus musculus with 6 samples.

Results

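The regions described here are stretches of mouse liver chromatin where ATAC-seq peaks were called in every control library and in no double knockout (dKO) library. The assay cuts and tags accessible DNA with the Tn5 transposase, so a peak marks a place where cuts pile up. The members were chosen by the peak calls themselves. Peaks of all 6 libraries on chromosomes 1 to 19 and X (mm10) were merged where they shared at least 1 bp, and a merged region was kept where all 3 control libraries and no dKO library had a peak. This gave 1468 control-only regions of 109853 merged regions (1.34%). All 6 libraries came from male mice carrying floxed alleles of Ncor1 and of a second gene, and from nuclei sorted for HNF4a, a hepatocyte transcription factor. The dKO mice (3 libraries) had received an adeno-associated virus with Cre recombinase and the controls (3 libraries) the same kind of virus with eGFP. Livers were taken on day 5 after the virus at zeitgeber time 10. The sources used here do not name the promoter driving Cre or the floxed exons, nor whether a library pooled animals.

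NCOR1 is a nuclear receptor corepressor: it is recruited by receptors such as PPAR alpha, thyroid hormone receptor and REV-ERB and brings a histone deacetylase complex to their target genes. In the liver this complex is known for holding back fatty acid oxidation and lipid synthesis genes. Promoters and enhancers in use are usually accessible over a few nucleosomes, and a peak caller compares the centre of such a stretch with its surroundings. A site without a called peak is therefore not shown to be closed.

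The peak lists held 84614, 81667 and 71473 peaks in dKO 1, 2 and 3, against 83371, 72417 and 68316 in control 1, 2 and 3. The weakest peak in a list had a normalized tag count, the depth-scaled number of tags in a peak, of 2.98 to 3.58 in dKO and 2.78 to 3.2 in control. No list held a peak with less than a 4-fold enrichment over its local surroundings, called the local fold below. Peaks were 172 bp wide in dKO 3 and control 3 and 166 bp in control 2, and narrower in dKO 1, dKO 2 and control 1. The sorted cell type matched its markers by signal level, though not by the number of marker genes with a region. Regions with peaks in all 3 controls lay at 20 of 22 hepatocyte identity genes and had a median control level of 27.5 normalized tags. The medians were 7.0 to 13.5 for markers of other liver cells. Such regions lay at 12 of 12 endothelial and 10 of 12 stellate marker genes. They lay at 5 of 12 Kupffer, 6 of 10 cholangiocyte and 5 of 12 lymphocyte marker genes.

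Some of these regions covered gene promoters. The sequences below are the 250 bases before the annotated start of 6 genes (RefSeq, GRCm38.p6, the build of mm10), 5' to 3' in the direction of the gene. Capitals mark the bases inside the control-only region. They are shown because the control-only peak lay on the promoter of a gene whose values are given below, and they were picked after those values were seen. Pdk4 is at chr6:5496279-5496528 (minus strand) and encodes a kinase that shuts off pyruvate dehydrogenase and so spares glucose. Necab2 is at chr8:119446469-119446718 (plus) and encodes a calcium-binding protein. Cyp3a25 is at chr5:146009618-146009867 (minus), Cyp1a2 at chr9:57683656-57683905 (minus) and Cyp2a5 at chr7:26835089-26835338 (plus), all cytochrome P450 enzymes of drug and steroid oxidation. Abcc2 is at chr19:43782058-43782307 (plus) and encodes the MRP2 pump that exports conjugates into bile.
Pdk4: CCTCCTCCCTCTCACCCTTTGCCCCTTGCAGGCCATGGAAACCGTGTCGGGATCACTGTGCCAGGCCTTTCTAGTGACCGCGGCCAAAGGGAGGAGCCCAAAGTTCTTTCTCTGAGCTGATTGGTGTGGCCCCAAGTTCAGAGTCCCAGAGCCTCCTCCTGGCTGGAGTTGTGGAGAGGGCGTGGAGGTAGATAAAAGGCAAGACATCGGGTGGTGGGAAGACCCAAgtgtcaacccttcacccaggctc
Necab2: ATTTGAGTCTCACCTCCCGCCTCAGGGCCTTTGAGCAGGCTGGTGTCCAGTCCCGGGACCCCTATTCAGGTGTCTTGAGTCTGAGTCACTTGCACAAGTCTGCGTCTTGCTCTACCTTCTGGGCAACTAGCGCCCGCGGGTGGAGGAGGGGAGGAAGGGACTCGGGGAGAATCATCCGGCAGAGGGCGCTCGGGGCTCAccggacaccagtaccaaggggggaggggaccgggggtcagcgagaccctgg
Cyp3a25: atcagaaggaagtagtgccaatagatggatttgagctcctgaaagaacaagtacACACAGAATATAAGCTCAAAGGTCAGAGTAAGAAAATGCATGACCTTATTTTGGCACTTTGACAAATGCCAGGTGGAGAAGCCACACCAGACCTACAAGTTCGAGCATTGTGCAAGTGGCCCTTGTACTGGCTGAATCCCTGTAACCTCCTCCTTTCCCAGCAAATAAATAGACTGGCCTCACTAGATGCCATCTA
Cyp1a2: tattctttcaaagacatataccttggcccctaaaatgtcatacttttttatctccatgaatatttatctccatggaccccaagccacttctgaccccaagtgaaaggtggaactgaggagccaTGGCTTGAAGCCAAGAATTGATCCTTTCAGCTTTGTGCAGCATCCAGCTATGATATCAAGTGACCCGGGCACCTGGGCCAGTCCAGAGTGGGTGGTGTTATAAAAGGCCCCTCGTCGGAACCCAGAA
Cyp2a5: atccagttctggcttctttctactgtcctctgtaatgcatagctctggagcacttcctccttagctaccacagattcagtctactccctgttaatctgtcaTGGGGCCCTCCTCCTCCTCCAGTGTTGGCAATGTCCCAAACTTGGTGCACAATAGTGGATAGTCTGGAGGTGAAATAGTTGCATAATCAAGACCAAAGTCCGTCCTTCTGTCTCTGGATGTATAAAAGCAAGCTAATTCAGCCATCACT
Abcc2: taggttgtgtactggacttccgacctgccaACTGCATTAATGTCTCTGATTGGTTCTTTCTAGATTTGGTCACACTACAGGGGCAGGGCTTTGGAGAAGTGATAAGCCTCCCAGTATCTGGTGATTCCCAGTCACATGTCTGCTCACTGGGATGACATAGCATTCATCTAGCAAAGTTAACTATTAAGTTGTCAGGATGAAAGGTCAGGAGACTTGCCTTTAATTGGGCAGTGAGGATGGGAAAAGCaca

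In all, 39 control-only regions shared a base with such a window, at 40 genes and 44 distinct windows, some of which overlap within a gene. A nuclear receptor core motif, AGGTCA on either strand, was found in 9 of these 44 windows (20.5%, at 8 genes), against 14.04% of all 32536 promoter windows of the same length. It was present in the Cyp3a25 and Abcc2 windows printed above. AGAACA, the core of a glucocorticoid receptor site, was in 12 windows of 10 genes (27.3%, against 16.03% of all), among them Cyp3a25. The search covered each whole window, so a match can lie outside the control-only region. AGAACA lay only outside it at Cyp3a25, B2m, Gm36199, Gm30827 and Tspan6, and AGGTCA only outside it at Slc17a1 and Lipc. TTGCNNAA, a C/EBP core, was in 7 windows of 6 genes (15.9%, against 9.57% of all), among them Necab2, Cyp3a25 and Cyp2a5. The forkhead core TGTTTAC was in 3 windows (6.82% against 3.17%), TGACGTCA, the cyclic AMP response element, in 2 (4.55% against 1.56%), the E-box CACGTG in 2 (4.55% against 6.04%) and GGGCGG, bound by SP and KLF factors, in 16 (36.4% against 33.0%). No motif contains another, and a match is a description of letters, not evidence of binding. The comparison windows were all promoters, whether or not they held a peak, so the shares were not matched for accessibility. Mean GC content was 52.8% in the windows at control-only regions and 53.3% in all windows. The Pdk4 and Cyp1a2 windows held none of these letters.

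Most control-only regions were weak. Their median level was 5.59 normalized tags in control 1, 5.36 in control 2 and 5.97 in control 3, which is 1.88, 1.93 and 1.87 times the weakest peak of each list. Regions with peaks in all 6 libraries (51749, called shared regions) had medians of 16, 16.1 and 16.3 in the same controls. The control-only levels ran up to 79.1, 70.7 and 66.7 tags, so a strong minority existed: 418 regions (28.5%) averaged at least 8 tags over the controls and 159 (10.8%) at least 20. The other 1050 (71.5%) averaged less than 8.

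**Figure D1:**
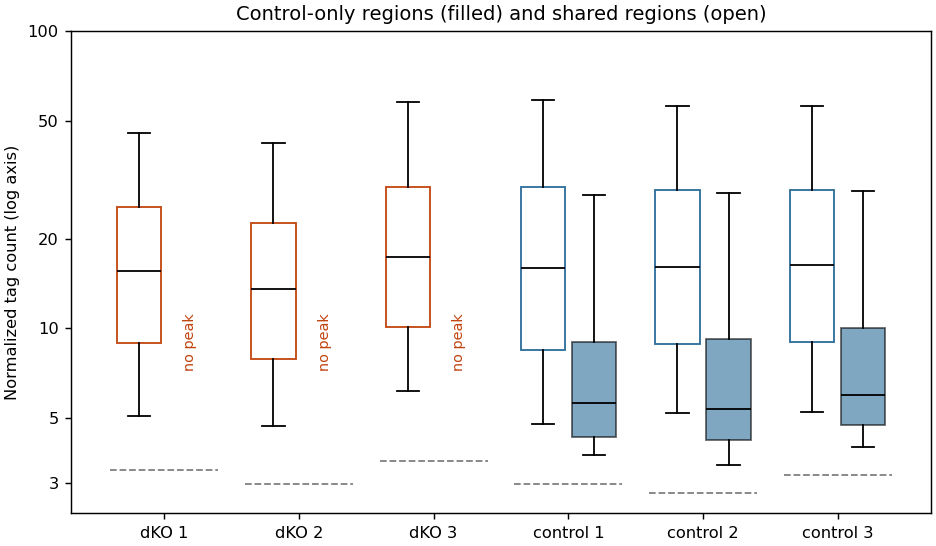
Normalized tag counts (log axis) of the 51749 shared regions (open boxes) and the 1468 control-only regions (filled boxes) in each library, with the weakest peak of each list as a dashed line. Boxes span the quartiles with the median as a line, and whiskers run to the 5th and 95th percentiles. The control-only medians of 5.59, 5.36 and 5.97 sit below the shared medians in every control, and dKO libraries have no peak there by the rule.

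Of the 58791 regions with peaks in all 3 controls, the 1468 without a dKO peak made up 2.50% (exact 95% interval 2.37 to 2.63%, counting error only). The rule fixes this share, which serves only as the background for what follows. The share fell with the control level: 14.7% of regions averaging under 5 tags had no dKO peak, 7.41% at 5 to 6, 2.98% at 6 to 8, 1.32% at 8 to 10 and 0.464% at 30 or more. Regions with a peak in just 1 dKO library numbered 2356 and those with 2 numbered 3218. The mirror class, with peaks in all 3 dKO and no control library, held 1723 regions, 2.81% of the regions with peaks in all 3 dKO libraries. The count depends on each library. It was 1863 when dKO 1 was left out, 1690 without dKO 2 and 3252 without dKO 3, and 2503, 2409 and 2309 without control 1, 2 and 3.

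**Figure D2:**
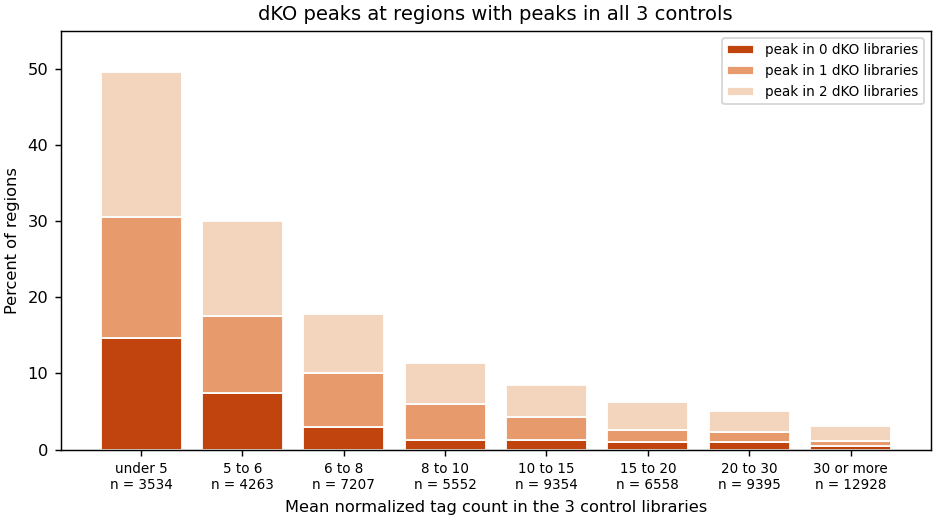
Percent of the regions with peaks in all 3 controls that had a peak in 0, 1 or 2 dKO libraries, by mean control level (n regions under each bar, remainder with peaks in all 3 dKO libraries). The lowest part of each bar is the control-only share, 14.7% in the weakest bin and 0.464% in the strongest.

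The weak and the strong members also differed in where they lay and how they stood out from their surroundings. The strong ones (control mean of 8 or more) had a low local fold: the lowest of the 3 controls was under 8-fold in 390 of 418 (93.3%), against 32.4% of shared regions of that level, and under 5-fold in 68.2% against 7.84%. Among weak members it was under 8-fold in 45.0%, against 41.2% of weak shared regions. Their surroundings were also fuller: 8.85% of strong members had no other region within 5 kb, against 28.7% of shared regions of that level, while 60.0% of weak members and 55.2% of weak shared regions stood alone. Thus 383 members had a lowest control value of at least 7.16 tags, 2 times the weakest peak of dKO 3, but in only 21 of them was the local fold also at least 8 in every control. Of these 21, 15 had no dKO peak within 1 kb. The part that the local fold filter played in the missing dKO peaks was not tested, since the lists give no value at sites without a peak.

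**Figure D3:**
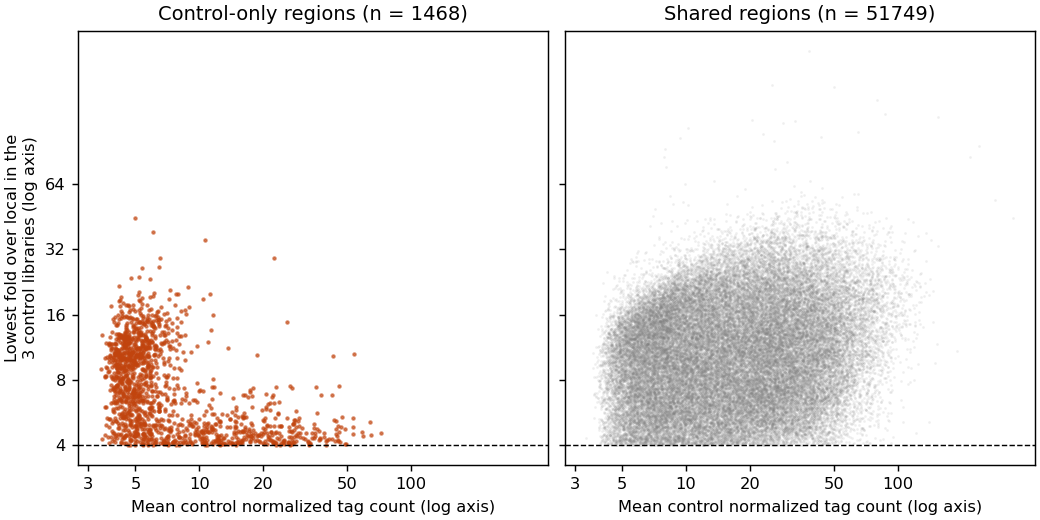
Mean control level against the lowest local fold of the 3 control libraries for control-only regions (left) and shared regions (right), both axes logarithmic, with the 4-fold minimum of the lists as a dashed line. Strong control-only regions lie along that line, with 93.3% of those averaging 8 tags or more under 8-fold.

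Distance to the nearest dKO peak split in the same way. Its median was 5534.5 bp over all members, 9372 bp for the weak and 1299.5 bp for the strong. A dKO peak lay within 1 kb of 285 members (19.4%), of 118 of the weak (11.2%) and of 167 of the strong (39.95%). It lay within 50 bp of 29 members and farther than 100 kb from 84. The 3 members nearest to a dKO peak were in Dag1, 1 bp away (6.6, 7.47 and 7.23 tags in control 1, 2 and 3), Chd7, 4 bp (21.6, 25.2 and 21.1) and Gramd1c, 5 bp (10.8, 13.4 and 10.1). At the other edge of the rule, the weakest member lay in Atp2c2 with 3.83, 2.97 and 3.64 tags. Just outside the rule, a region in Itga10 had 4.62 tags in dKO 3 and no peak in dKO 1 or dKO 2, against 19.4, 16.7 and 16.9 in the controls. A region near Eri1 had 3.92 in dKO 2 only, against 10.4, 9.67 and 21.9, and one at chromosome 1, 127045795 to 127046031, had 4.23 in dKO 2 only, against 12.6, 18.2 and 18.8.

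Control-only regions were seldom at gene ends. Of the 1468, 656 (44.7%) had their midpoint inside a protein-coding gene, 469 (31.9%) outside but within 50 kb of one and 343 (23.4%) farther away, against 57.0%, 32.1% and 10.8% of shared regions. Gene ends here are both limits of a gene span, its start and its end. No more than 1 kb from one lay 96 members (6.54%, exact 95% interval 5.33 to 7.93%), against 22.2% of shared regions. Split at a control mean of 8 tags, the gap was smaller: 3.24% of weak members against 7.69% of weak shared regions, and 14.8% of strong members against 26.0% of strong shared ones. These classes were not matched in level: median control means were 5.03 against 6.19 tags for the weak and 15.9 against 20.8 for the strong. In finer level bins the share of members was lower throughout, from 10.7% against 11.4% at 10 to 15 tags to 31.7% against 47.3% at 30 or more. Exons, introns and UTRs were not told apart. By chromosome, the share of regions with peaks in all controls that had no dKO peak ran from 1.75% on chromosome 5 to 3.59% on chromosome 19 among autosomes. It was 4.85% on X (63 of 1300, exact 95% interval 3.74 to 6.16%), where the median control mean of these 1300 regions, 10.2 tags, was also the lowest of any chromosome.

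Most of the strongest members had a local fold close to the minimum. The 14 with the highest lowest-control value are given, and in 10 of them the lowest local fold was under 5. Trf encodes the iron carrier transferrin. A region at chromosome 9, 103230195 to 103230371, had its midpoint 3 bp from the higher-coordinate limit of the Trf gene span. It had 79.1, 70.7 and 66.7 tags in control 1, 2 and 3 and no dKO peak within 4406 bp. Inside Agpat2, a phosphatidic acid synthesis gene, the region had 65.6, 65.2 and 63.7 tags, and near Pim3, a serine/threonine kinase gene, 61.5, 64.7 and 65.1. The nearest dKO peaks were 443 bp away at Agpat2 and 4650 bp away at Pim3. The controls varied little at these sites, with SDs of 6.33, 1.0 and 1.97 tags.

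Inside Arg1, the arginase of the urea cycle, a region 7 bp from a gene end had 48.1, 54.5 and 43.6 tags. Tsku, which encodes a secreted leucine-rich protein, had 62.0, 63.5 and 52.6 tags 3019 bp outside the gene. Inside Pcdh1, a protocadherin gene, the values were 63.5, 56.3 and 56.7, and near Ushbp1 51.8, 56.8 and 51.2. Each of these had a lowest local fold under 5. Nfic, encoding a nuclear factor I protein, had 46.5, 52.0 and 46.9 tags, and Zbtb7b, encoding a zinc finger transcription factor, had 56.2, 44.5 and 47.1. At Eef1a1, a translation elongation factor gene, they were 49.1, 44.5 and 44.3. The lowest local folds of these 3 were the closest to the minimum, 4.03, 4.03 and 4.13. At 2 of the 14, Glcci1, named for its induction by glucocorticoids (59.0, 53.5 and 49.4 tags), and Nab1, which encodes a corepressor of EGR factors (47.3, 45.9 and 43.8), a dKO peak began 12 and 49 bp from the region. These 2 are neighbours of dKO peaks rather than isolated sites, and both left the class when peaks within 100 bp were merged.

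The last of the 14 lay side by side on chromosome 8. Inside Osgin1, a gene induced by oxidative stress, 119430309 to 119430481 had 47.7, 43.0 and 48.5 tags in control 1, 2 and 3, and at Necab2 119446430 to 119446667 had 43.9, 63.1 and 52.2, with no dKO peak within 17267 and 33388 bp. Their lowest local folds were 4.84 and 5.33. At lower coordinates, in Mlycd, the gene for malonyl-CoA decarboxylase, which favours fatty acid oxidation, a weaker control-only region at 119412145 had 10.2, 14.1 and 14.3 tags. Beside it, a shared region at 119412807 was stronger in dKO: 43.2, 37.6 and 39.6 tags in dKO 1, 2 and 3, against 20.1, 18.3 and 16.8 in control 1, 2 and 3, with no overlap. Its log2 fold change, dKO over control on the log2(tags + 1) scale, was 1.15 (SE 0.13, limma adjusted p = 0.00063).

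Of the 21 strong members with a high local fold in every control, chosen after their values were seen, several were isolated. An X-chromosome region at 19058750 to 19058967 with no gene within 50 kb had 9.15, 11.2 and 11.6 tags, a lowest local fold of 35.3 and no dKO peak within 24191 bp. In Cd4, a T helper cell gene, the values were 11.0, 9.81 and 10.3 with a lowest local fold of 18.9. In Ephb1, an ephrin receptor gene, they were 11.4, 7.75 and 7.29, with a local fold of at least 21.4 and the nearest dKO peak 179012 bp away. Myo16, a myosin gene, had 9.42, 10.3 and 13.9, and Gli2, a transcription factor gene of hedgehog signalling, had 13.8, 9.19 and 11.7 in a region 21795 bp from the gene. All of these values were at least 2 times the weakest peak of every list.

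Pdk4 held 4 control-only regions, as many as any gene, and they were joined by strong dKO peaks at other places in the same locus. The gene lies on the minus strand of chromosome 6. The promoter region, 5496302 to 5496544, had 50.9, 39.4 and 37.8 tags in control 1, 2 and 3, with local folds of 16.6, 10.4 and 11.98. On its gene side, a region at 5495983 to 5496274 had 67.1, 53.2 and 60.1 tags in dKO 1, 2 and 3, against 18.3 in control 1 and no peak in control 2 or 3. On its upstream side, 25 bp away, dKO 2 alone had a peak of 38.0 tags at 5496569 to 5496677. Every library thus had a peak near the start of Pdk4, and dKO 2 had one on each side of the control-only region.

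The other Pdk4 members lay in and beyond the gene. At 5479971 to 5480157, 3287 bp past its end, the controls had 20.4, 25.1 and 22.2 tags with local folds of 49.1, 29.3 and 37.8, the highest lowest-control local fold among the 21 but for the X-chromosome region. The nearest dKO peak was 2347 bp away, in a dKO-only region at 5482504 with 77.5, 83.1 and 71.6 tags in dKO 1, 2 and 3 and local folds of 4.54, 5.84 and 4.93. Inside the gene, 5485151 had 14.6, 12.6 and 7.51 control tags and 5486633 had 5.69, 7.42 and 6.0.

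**Figure D4:**
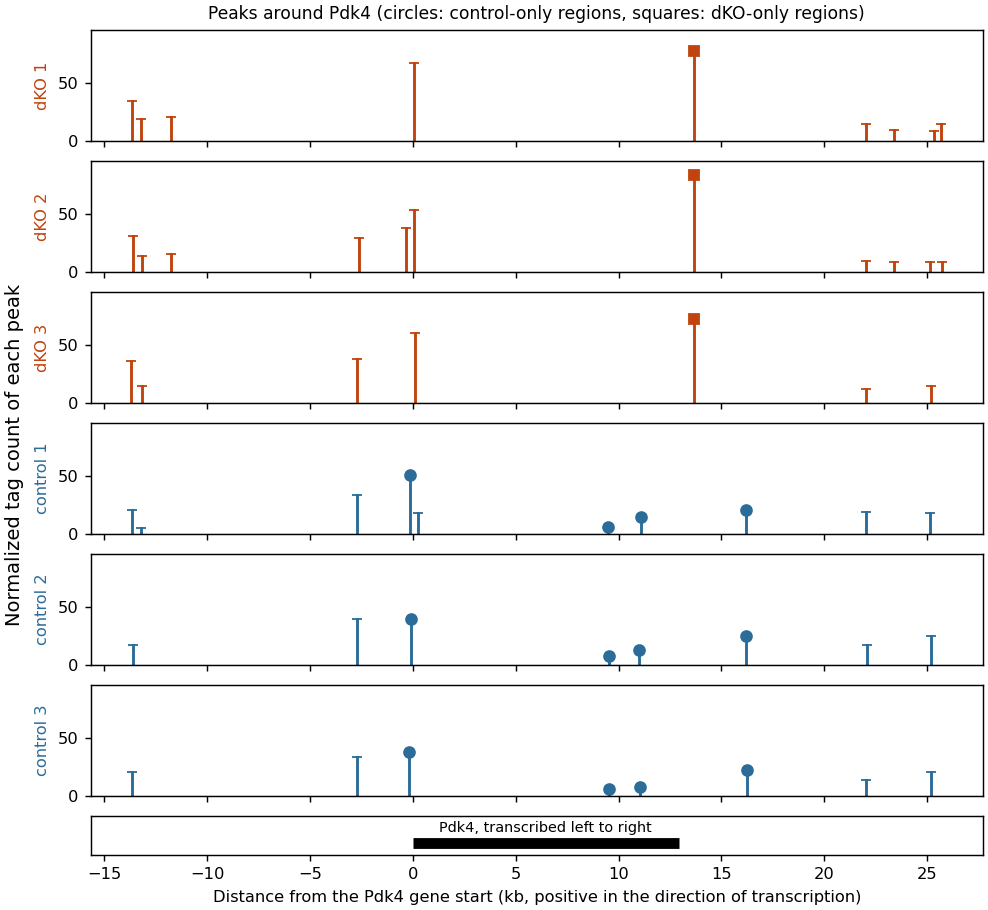
Normalized tag count of every peak within 15 kb of Pdk4 by distance from the gene start (kb, positive in the direction of transcription), dKO libraries above controls, with circles for control-only regions, squares for dKO-only regions and ticks for all others. All 3 controls have peaks of 20.4 to 25.1 tags past the gene end where dKO has none, and all 3 dKO libraries have one of 71.6 to 83.1 tags nearer the gene end where controls have none.

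By tag count, shared regions near Pdk4 moved both ways. At 5470889, downstream, the values were 9.09, 8.47 and 14.8 in dKO 1, 2 and 3, against 18.4, 24.5 and 20.2 in control 1, 2 and 3, without overlap (log2 fold change -0.87, SE 0.17, limma adjusted p = 0.00496). At 5509809, upstream, they were 34.8, 31.2 and 35.8 in dKO against 21.0, 17.1 and 20.5 in control (0.83, SE 0.13, adjusted p = 0.00163). The region at 5474117 was not called (-0.35, SE 0.17, adjusted p = 0.176), with 14.5, 9.72 and 12.4 in dKO against 19.3, 16.9 and 13.3. Within the narrow and the wide peak lists alone the first was -0.86 and -0.65 and the second 0.76 and 0.80. Both calls held without any 1 library, the highest adjusted p being 0.0411 and 0.0229. Local folds were lower in dKO at each of these regions, also where tags rose. At 5509809 they were 8.89, 10.65 and 10.7 in dKO against 30.9, 17.31 and 22.96 in control. The region at 5498860 had 33.5, 39.8 and 33.2 tags in control, 29.0 in dKO 2, 38.2 in dKO 3 and no dKO 1 peak. Its local folds were 10.33, 10.65 and 10.33 in control against 4.46 and 5.09. The part of local fold in the missing peaks was not tested.

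Among the gene lists other than cell type markers, control-only regions made up the highest shares at PPAR alpha targets and at cytochrome P450 and conjugation genes. PPAR alpha is the receptor that switches on fatty acid oxidation in fasting. Of 79 regions with peaks in all 3 controls at its targets, 10 (12.7%, against the background of 2.50%) were control-only, at Pdk4 (4), Cyp4a10 and Ehhadh (2 each), Acot1 and Fgf21 (1 each). The same list held 10 dKO-only regions of 78 (12.8%, against 2.81% over all regions with peaks in all dKO libraries), and 4 of its genes held both kinds. At Cyp4a10, a fatty acid hydroxylase, control-only regions at 115519198 and 115518106 on chromosome 4 had 12.3, 13.6 and 23.1 tags and 11.4, 12.3 and 14.4 tags in control 1, 2 and 3. Past its other end, 2 dKO-only regions had 44.4, 64.9 and 55.1 tags and 32.8, 45.9 and 47.9 tags in dKO 1, 2 and 3. At Ehhadh, the peroxisomal bifunctional enzyme, control-only values in control 1, 2 and 3 were 18.6, 18.0 and 16 and 11.7, 9.86 and 10.3, and a dKO-only region more than 20 kb from them had 53.5, 37.8 and 36.1 in dKO 1, 2 and 3. All 7 shared regions within 10 kb of these members were tested, and 4 were called higher and 1 lower. Over all shared regions, 8.19% were called higher and 11.6% lower. The median log2 fold change in tags of the 7 was 0.525. Their median log2 change in local fold was -1.10 in the narrow peak lists and -0.11 in the wide ones. Over all shared regions these medians were -0.25 and 0.002. The cause of this difference was not tested.

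At cytochrome P450 and conjugation genes, which clear drugs, steroids and toxins, 8 of 69 regions (11.6%) were control-only, each at a gene of its own. The same list held 4 dKO-only regions of 71 (5.63%, against 2.81% over all regions with peaks in all dKO libraries). The strongest control-only region was 2124 bp outside Cyp2d9, with 29.1, 31.5 and 23.7 tags in control 1, 2 and 3. The Cyp3a25 promoter region had 21.8, 25.9 and 19.8, Cyp1a2 23.6, 25.7 and 18.7 and Cyp2a5 17.0, 17.2 and 13.7. Regions near Ugt2b1 (22.4, 17.8 and 24.8), Gstp1 (16.3, 17.5 and 14.2), Cyp3a11 (12, 13.4 and 6.5) and Cyp2e1 (5.48, 4.21 and 4.99) made up the rest, all but Cyp2e1 averaging 8 tags or more. The lowest local fold in these 8 was between 4.08 and 6.84. The P450 families hold near-identical neighbours, so some of these reads may have been assigned between copies.

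**Figure D5:**
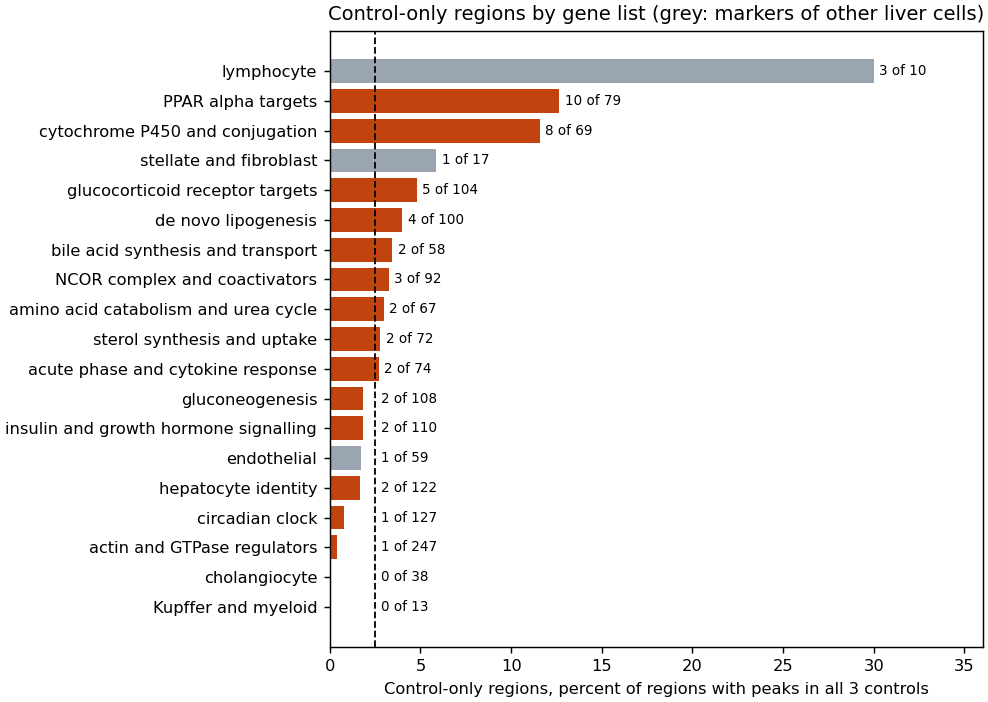
Control-only regions as a percent of the regions with peaks in all 3 controls at the genes of each list, with the count beside each bar and the background of 2.50% as a dashed line, grey bars being markers of other liver cells. PPAR alpha targets (10 of 79) and cytochrome P450 and conjugation genes (8 of 69) are the metabolic lists farthest above the line.

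The remaining lists had shares between 0.405% and 4.81%. Glucocorticoid receptor targets had 5 of 104 (4.81%), of which 4 were the Pdk4 regions and 1 lay in Nr3c1, the receptor's own gene (3.99, 4.5 and 4.77 tags). Gluconeogenesis genes had 2 (1.85% of their regions), at Pcx, pyruvate carboxylase (13.1, 19.3 and 15.9), and near Mdh1, malate dehydrogenase (6.12, 7.75 and 5.89), with a dKO peak 17 and 41 bp away. De novo lipogenesis genes had 4 of 100, led by 2 in Gpam, the first enzyme of triglyceride synthesis (17.4, 19.8 and 16.8, and 15.6, 23.9 and 19.9). Bile acid genes had 2 of 58, both at Abcc2, where the stronger had 33.7, 38.2 and 39.5 tags in control 1, 2 and 3 and stood 4089 bp from a dKO-only region with 131.8, 80.6 and 80.4 in dKO 1, 2 and 3. NCOR complex and coactivator genes had 3 of 92, 2 of them in Tbl1xr1, a core subunit of the NCOR complex (8.25, 7.32 and 9.14, and 4.47, 6.32 and 8.63), and 1 near Ncoa2. Hepatocyte identity genes had 2 of 122 (Trf and Ttr), amino acid genes 2 of 67 (Arg1 and Oat), acute phase genes 2 of 74 (Lbp and Il1r1), sterol genes 2 of 72 (Hmgcs1 and Srebf2), insulin and growth hormone genes 2 of 110 (Stat5b and Pik3r1), actin regulators 1 of 247 (Dock8) and clock genes 1 of 127 (Nfil3).

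Markers of other liver cells had 5 control-only regions of 137 with peaks in all controls (3.65%, against the background of 2.50%). Of these, 3 were at lymphocyte markers, which had 10 such regions, at Cd4, Lef1 (7.72, 5.55 and 5.33 tags) and Il2rb (3.99, 5.31 and 5.94). The nearest dKO peak was 5721 bp away at Cd4 and 87762 bp at Lef1, but only 7 bp at Il2rb. Over the regions at the 12 lymphocyte markers, leaving out control-only and dKO-only ones, the summed level was 131.9 to 144.3 normalized tags in dKO (10 to 14 peaks) and 137.6 to 153.6 in control (10 to 13 peaks), which overlap, and 6 of the 12 genes, among them Cd79a and Ms4a1, had no peak in any library. The part of lymphocyte nuclei in the 3 regions was not tested. Endothelial markers had 1 of 59, in Stab2, and stellate markers 1 of 17, in Reln, while Kupffer markers had 0 of 13 and cholangiocyte markers 0 of 38, which allow shares of up to 23.1% and 7.89% when a count of 0 is taken as up to 3. Summed levels of these 4 lists, taken in the same way, overlapped between the groups: 242.3 to 298.2 in dKO and 255.6 to 285.0 in control for Kupffer cells, 638.7 to 910.6 in dKO and 736.5 to 881.1 in control for endothelial cells, 132.8 to 190.6 in dKO and 147.8 to 183.7 in control for stellate cells, and 514.4 to 691.6 in dKO and 535.4 to 612.3 in control for cholangiocytes. Cd68, Lyz2 and Timd4 (Kupffer), Dcn (stellate) and Krt19, Krt7 and Cftr (cholangiocyte) had no peak in any library.

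Control-only regions were spread thinly over genes. Within 50 kb, 1125 of the 1468 were linked to 1000 genes, of which 893 had 1, 92 had 2, 12 had 3 and 3 had 4. The 3 with 4 were Pdk4 and the long genes Adamts17, a metalloprotease gene, and Bcas3. At Adamts17 the 4 lay between 3.78 and 8.63 control tags, and at Bcas3 between 3.87 and 6.45, so these were all weak. Zmiz1, encoding a transcriptional coregulator, had 3 strong ones inside the gene, with 46.3, 48.6 and 41.0, 35.4, 33.6 and 32.8, and 28.1, 28.6 and 21.6 tags in control 1, 2 and 3. Their lowest local folds were 4.91, 4.53 and 4.13, near the 4-fold minimum. The nearest dKO peaks were 412, 741 and 3734 bp away. Of the 23 Zmiz1 regions with peaks in all controls, 17 were shared. Cmip also had 3, between 9.92 and 25.4 tags. Zdhhc14, a palmitoyltransferase gene, had values between 5.44 and 14.7, Sipa1l2 between 4.09 and 17.4, and Adam22 between 4.21 and 11.9. Only 97 members lay within 10 kb of another and 50 within 10 kb of a dKO-only region, and 158 genes held both control-only and dKO-only regions.

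Shared regions near the members leaned towards lower values in dKO. These neighbours are not members, but they come from the same contrast and give no independent support. Of 1137 shared regions within 10 kb of a control-only region, 204 (17.9%) were called lower and 98 (8.62%) higher by limma at an adjusted p under 0.05, against 11.6% lower and 8.19% higher over all 51749 shared regions. The median log2 fold change was -0.10 near members and -0.02 over all. Within the narrow peak lists (dKO 1, dKO 2 and control 1) these medians were -0.13 and -0.03, and within the wide ones (dKO 3, control 2 and control 3) -0.04 and 0.01. Near members the median control level was also higher, 19.1 against 16.2 tags, and the part of level in the difference was not tested. Near strong members 18.6% were lower and 10.4% higher, and near weak members 17.4% were lower and 6.20% higher. The share called lower fell to 7.21% (all shared regions, 3.98%) without dKO 1 and to 5.19% (2.71%) without dKO 2. A shared region was within 10 kb of 697 members (47.5%), so most members had none that near.

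The 8 shared regions with the smallest p near the strongest members and the genes with most members are named, and all were called. Since they were picked by p, their calls do not give the share called among such neighbours. The one that rose lay in Cmip at chromosome 8, 117300247, with 44.9, 41.1 and 39.7 tags in dKO 1, 2 and 3, against 19.5, 23.7 and 14 in control 1, 2 and 3 (log2 fold change 1.19, SE 0.17, limma adjusted p = 0.00142). Inside Agpat2, 443 bp from the strong control-only region, the values were 37.4, 34.0 and 54.3 in dKO against 71.2, 71.1 and 62.3 in control (-0.66, SE 0.12, adjusted p = 0.004). Within the narrow and the wide peak lists alone, the log2 fold changes were 1.23 and 0.98 at Cmip and -0.85 and -0.39 at Agpat2. Both sets of values were free of overlap, and both calls held without any 1 library, with highest adjusted p-values of 0.0203 and 0.0422. Besides the Pdk4 region above, the others fell by 0.42 to 0.68. Each of these 5 lost its call without some single library: Snx9 without dKO 2 (adjusted p = 0.0531), Bcas3 without dKO 1, dKO 2 or control 1 (up to 0.117), Pim3 without dKO 1, dKO 2, control 1 or control 3 (up to 0.11), Adamts17 without dKO 1, dKO 3, control 1 or control 3 (up to 0.141), and the Cmip region at 117440847 without dKO 1, dKO 2, control 2 or control 3 (up to 0.155). Calls also ended with quantile normalization and without centring at Pim3 (adjusted p = 0.0721 and 0.0687) and Cmip (0.14 and 0.0659), at a mean of at least 10 at Cmip (0.0564) and Adamts17 (0.051), and with the width class as a term at Cmip (0.0502). At Trf, a shared region at 103207802, on the far side of the gene from the control-only region, had 84.2, 88.6 and 91.5 tags in dKO against 41.8, 68.2 and 40.3 in control (0.90, SE 0.17, adjusted p = 0.00399). On the nearer side, 2 shared regions by 1300017J02Rik were lower. The one at 103241284 had 31.1, 30.4 and 36.5 tags in dKO against 49.7, 42.7 and 40.4 in control (-0.37, SE 0.12, adjusted p = 0.0435), and the one at 103243795 had 21.8, 17.8 and 28.8 in dKO against 37.2, 32.3 and 34.1 in control (-0.54, SE 0.13, adjusted p = 0.0108). The first call was lost without dKO 1, dKO 2, dKO 3, control 1 or control 2 (adjusted p up to 0.154), with quantile normalization (0.206), without centring (0.0995) and at a mean of at least 10 (0.0776), and the second without dKO 1 (0.0562) or dKO 2 (0.0821). The call at 103207802 held without any 1 library, with a highest adjusted p of 0.0413.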

How the data were processed

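The data were ATAC-seq peak lists of 6 libraries, 3 dKO and 3 control, 1 list per library, so no list of pooled replicates was used here. Tools named in the submitters' processing notes are HOMER 4.11, SAMtools 1.10, Trim Galore 0.6.4 and Picard, with the build mm10. The aligner, the read filters and any cut-site shift: not given in the sources used here. Per the file headers, each deposited peak has 6 values: the normalized tag count (signal, scaled to depth by HOMER), which is analysed here, the focus ratio (fraction), the score of the peak finder, the ratio of tags to the local background with its p-value, and the clonal ratio. How deep each library was sequenced is unknown.

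Each region took the highest normalized tag count of a library's peaks in it. Regions with peaks in all 6 libraries were fitted as log2(value + 1), centred on each library's median, with limma 3.58.1 (trend on the mean, R 4.3.3), with Benjamini-Hochberg adjustment over all of them, 2-sided at 0.05, after testing on simulated data. The equal replicate numbers are not said to pair animals, nor each library to be its own animal. The p-values therefore reflect only how these libraries vary, partly perhaps for technical reasons. Intervals are exact binomial (Clopper-Pearson) and cover counting error only. Chromosome Y peaks (17 to 24 per library) were left out. Region midpoints were linked to the closest protein-coding gene within 50 kb (RefSeq GRCm38.p6). Motifs were searched in RefSeq promoter windows on both strands in place of the planned search of the regions, since no genome was used. The 7 motifs given are part of a longer list, shortened after its counts were seen.

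The members and gene lists were chosen with earlier results of these data known. Named regions are the 14 with the highest lowest-control value, those of the 8 genes with most members, up to 2 per gene list, the edges of the rule and up to 8 neighbouring shared regions with the smallest p. Other named regions were picked after their values were seen. Members were described without a test, because the rule used the contrast. Alternatives were other merging distances, peak widths, score filters, scalings, pseudocounts, the peak width class, the replicate block and leaving out each library.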

Additional observations from a re-analysis of the deposited data

How the results depend on the processing

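Merging peaks within 100 bp or 500 bp, or setting every peak to 200 bp, gave 1437, 1311 and 1446 control-only regions, and 1423, 1287 and 1438 of the 1468 were kept. The share of regions with peaks in all controls that had no dKO peak was 2.30% with 500 bp merging. A score of at least 2 times the lowest, asked in all lists, gave 1476 regions (3.52%) but kept only 385 of the 1468. Asked in the control lists alone it gave 385 regions (0.919%), of which 224 had no dKO peak within 1 kb and 15.8% lay within 1 kb of a gene end. The 3 filters chosen after seeing the data left 383 regions (lowest control value at least 2 times the highest list minimum), 606 (local fold of at least 8 in each control) and 21 (both). Leaving out 1 library gave 1690 to 3252 control-only regions, 2.88 to 5.54% of regions with peaks in the remaining controls, and 1360 to 2744 without a dKO peak within 1 kb. The gene end share was 11.9% with all genes in place of protein-coding ones and 10.6% within 2 kb.

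Shared regions called lower numbered 5995, and 1402 to 8123 when 1 library was left out. Near control-only regions the share called lower was 17.9% in the reported fit, 14.4% with quantile normalization, 14.3% without centring, 15.1% at a mean of at least 10, 13.0% for regions with peaks in at least 3 libraries, 15.6% within 50 kb and 5.19 to 21.7% without 1 library. With the replicate number as a block it was 20.8%, with 7384 regions called lower. Deviations of same-numbered libraries had correlations of 0.146, -0.032 and 0.234, while control 1 correlated best with dKO 2 (0.157). Some libraries also shared peak widths across the groups, so these correlations cannot decide whether equal numbers were paired. Lower regions made up 58.6% of calls, 50.6% with quantile normalization and 64.5% without centring. No result changed direction in these alternatives. The cause of these changes was not tested. Sequencing depth is unknown, so what it limits could not be measured.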
